A study of Homo sapiens with 12 samples.

Results

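The 36 genes described here belong to the Hippo pathway and to the transcriptional programme of its effectors YAP and TAZ. They were picked by symbol from a table of 56832 genes and fall into a list of 18 pathway genes and a list of 21 target genes, with 3 genes (AMOTL2, LATS2 and PTPN14) on both. All 36 symbols were found, among them CYR61 and CTGF, the older names of CCN1 and CCN2. RNA was measured in DU145, an established human prostate cancer cell line, and the study compared clones without RAC1, a small GTPase that drives actin remodelling, with RAC1-positive lines. The 3 RAC1-positive lines were the Parental line, which the labels call wild type and give no guide, and sgNTC clone 1 and sgNTC clone 2, which had received Cas9 with a non-target guide. The 3 knockout lines were sgRAC1 clone 1, made with the guide sgRAC1_1, and sgRAC1 clones 2 and 3, both made with sgRAC1_2. Edited cells had been plated singly, so that each edited line is 1 clone, and the Parental line did not go through that step as far as the labels say. All lines were grown in RPMI with 10% serum. Each line was sequenced in 2 batches, which gave 12 libraries. The labels name no added agent.

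In the Hippo pathway, the kinases MST1 and MST2 (genes STK4 and STK3) with the scaffold SAV1 activate the kinases LATS1 and LATS2 with their adaptor MOB1, and LATS phosphorylates YAP and TAZ so that they stay in the cytoplasm. Unphosphorylated YAP and TAZ enter the nucleus, bind TEAD transcription factors and switch on genes such as CTGF, CYR61 and ANKRD1. Cell density, attachment and actin tension are known inputs of the pathway, and YAP and TAZ are controlled largely through phosphorylation and location, which RNA levels do not show.

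Promoter sequence from RefSeq (GRCh38.p14; 250 bases before to 50 after the transcription start) was at hand for 29 of the 36 genes, and was searched on both strands for GGAATG, the core of the TEAD motif. It occurred in 8 of the 29 windows (27.6%), against 14% of the windows of 27305 genes, and in 7 of the 17 target gene windows (41.2%). At least 2 copies were found in CTGF, ANKRD1 and NUAK2, against 1.37% of all windows, and 3 copies in CTGF, against 0.15%. The first 250 bases of the windows of those 3 genes are shown, with FJX1, the gene with the smallest p in the genotype comparison. They lie at chr6:131951373-131951622, chr10:90921088-90921337 and chr1:205321746-205321995 on the minus strand and at chr11:35618210-35618459 on the plus strand, and all are written 5′ to 3′ towards the gene. Capitals mark the motif, as GGAATG where it reads along the gene and CATTCC where it lies on the other strand.
CTGF: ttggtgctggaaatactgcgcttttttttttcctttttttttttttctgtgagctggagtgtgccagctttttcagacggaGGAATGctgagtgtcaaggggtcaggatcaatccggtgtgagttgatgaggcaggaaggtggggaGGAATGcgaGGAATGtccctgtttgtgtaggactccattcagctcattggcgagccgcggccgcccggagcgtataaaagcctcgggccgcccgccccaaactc
ANKRD1: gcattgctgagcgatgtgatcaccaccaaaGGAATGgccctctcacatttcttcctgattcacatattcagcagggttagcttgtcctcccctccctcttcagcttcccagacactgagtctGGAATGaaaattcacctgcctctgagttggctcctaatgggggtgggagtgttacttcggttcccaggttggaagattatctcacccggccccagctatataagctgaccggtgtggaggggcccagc
NUAK2: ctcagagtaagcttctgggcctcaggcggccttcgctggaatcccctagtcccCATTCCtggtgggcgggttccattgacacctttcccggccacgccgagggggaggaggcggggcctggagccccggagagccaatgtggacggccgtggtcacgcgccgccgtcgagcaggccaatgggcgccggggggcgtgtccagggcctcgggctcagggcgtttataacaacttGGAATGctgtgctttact
FJX1: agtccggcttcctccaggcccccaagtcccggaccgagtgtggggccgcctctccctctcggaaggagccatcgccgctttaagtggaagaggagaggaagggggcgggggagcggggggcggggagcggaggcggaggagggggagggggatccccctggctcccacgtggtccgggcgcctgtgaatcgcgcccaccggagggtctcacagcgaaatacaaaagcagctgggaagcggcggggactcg
The copies began 169, 104 and 95 bases before the CTGF start, 220 and 128 before that of ANKRD1, and 197 (on the other strand) and 18 before that of NUAK2. The letters were not in the FJX1 window. Single copies lay 162 bases before the start of YAP1, 196 before FOXF2, 200 before PTPN14, 185 before TGFB2 and 10 after that of LATS2. A match describes the sequence only and is no measure of binding.

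RAC1 itself was listed at 36.5 to 59.2 TPM (a length-corrected level, scaled to the same total in every library) in the 6 knockout libraries and at 149 to 202 TPM in the 6 RAC1-positive libraries, a log2 difference of -1.89 (SE 0.14) between the line means with adjusted p = 0.0467 by limma. RAC1 was the only 1 of 17367 genes tested to pass that test. Between 20470 and 25156 genes were above 0 in 11 libraries, and 13608 in sgNTC clone 2 replicate 1, whose median correlation with the others was 0.872, against 0.936 to 0.954 for the rest. Among the 36 genes, genotype differences that moved by over 1.5 times without this library, or whose line means it brought to overlap or apart, are given with and without it. Without it, sgNTC clone 2 is left with its batch 2 value alone, so the batches are no longer balanced over the lines. Single genes outside the 36 are given with all libraries only, so their dependence on it is not shown. All 5 epithelial markers averaged at least 1 TPM, and their summed level was 372 to 752 TPM in knockout libraries and 273 to 802 in RAC1-positive ones. Of 5 prostate luminal markers only 1 reached that mean and 3 were at 0 in every library. The summed fibroblast markers reached at most 0.751 TPM and the endothelial markers at most 0.791 TPM. The immune list (3 of 5 at 0 everywhere) summed to 0.726 to 4.23 TPM in knockout and to at most 1.08 TPM in RAC1-positive libraries, with CD14 alone at up to 4.23 TPM.

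None of the 33 Hippo pathway and target genes with enough signal to test differed between knockout and RAC1-positive lines at an adjusted p of 0.05. In 10 of the 33, among them FJX1, CTGF, AMOTL2 and CRIM1, the highest knockout line still lay under the lowest RAC1-positive line, and in 3 (WWTR1, MYOF and AMOTL1) the lowest knockout line lay over the highest RAC1-positive line. Together these are 39.4% of the genes tested here, against 20.5% of all 17367 genes (8.52% lower and 12% higher). Without sgNTC clone 2 replicate 1, 7 were apart on the low side (10.2% of all genes) and 5 on the high side (13.7%). The line means of CTGF, AMOTL2, CYR61 and LATS2 then overlapped, with sgNTC clone 2 left at its batch 2 value alone. These genes were lower in batch 2 on average (-0.59, -0.51, -0.27 and -0.49). Within each batch the libraries of CTGF, AMOTL2 and CYR61 stayed apart without that library, and those of LATS2 overlapped in batch 2. Of the target genes, 14 of 19 were lower in the knockout, with a median log2 difference of -0.31, and of the pathway genes 9 of 17, with a median of -0.035. Over all genes 46.7% were lower and the median was 0.025. The target median was -0.255 without sgNTC clone 2 replicate 1, and -0.14 without that clone. A gene on both lists counts in each. Differences are knockout minus RAC1-positive in log2(TPM + 1), which understates the change of low genes. An error after ± is the SD over the 3 lines of a group. An SE is that of the difference by limma, which moderates the variance of a gene with those of all genes.

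The count called by limma on the 6 line means was 0 of 33, where 0.00576% of all genes passed. Without sgNTC clone 2 replicate 1 it was again 0 of 33, and 21 of all genes passed. At an unadjusted p of 0.05 there were 8 lower (5.46% of all genes) and 3 higher (7.53% of all genes), 11 in all (13.0% of all genes). An exact permutation test of 3 lines against 3 cannot go below p = 0.10, the value it gave for each of the 13 genes whose lines did not overlap. When limma was fitted to all 12 libraries, with the line as a random effect, FJX1 alone passed (369 of all genes, 2.12%, did). With a replicate block for the batch, FJX1 and MYOF passed (320 of all genes, 1.84%). The correlation within lines was estimated at -0.030 in the fit without the block, so that fit treats the 2 libraries of a clone almost as separate samples. The estimate for the fit with the block is not given here. The p-values measure the spread among these lines and libraries. In bulk RNA, a lower level in every cell and fewer cells that express a gene cannot be told apart.

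**Figure D1:**
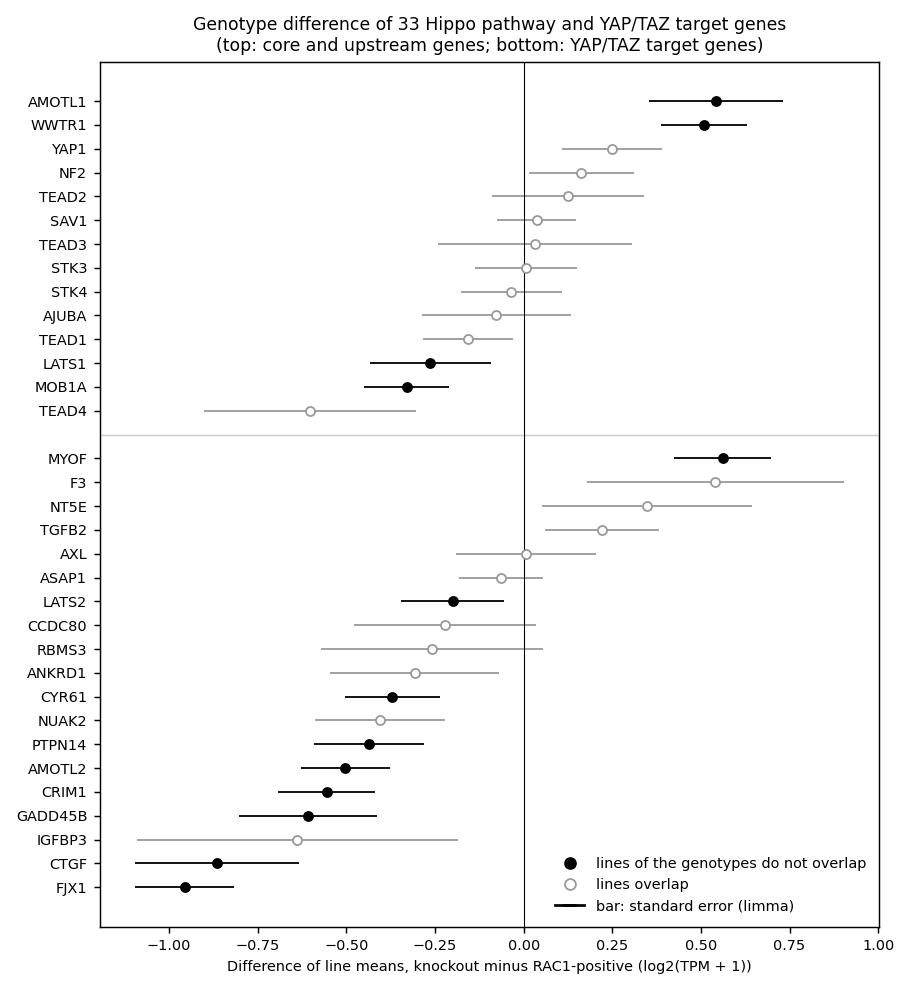
Difference between the 3 knockout and the 3 RAC1-positive lines in log2(TPM + 1) for the 33 genes tested, with target genes, AMOTL2, LATS2 and PTPN14 among them, below the grey line; points are differences of line means, bars 1 SE, and filled points genes whose lines do not overlap. FJX1 (-0.96) and CTGF (-0.86) lie lowest, and MYOF (0.56), AMOTL1 (0.54), F3 (0.54) and WWTR1 (0.51) lie highest.

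Of the effectors, the gene for TAZ was higher in all knockout lines, and YAP1 was higher on average. That gene, WWTR1 (chromosome 3, 149517235 to 149736714, minus strand, GRCh38), encodes the paralogue of YAP. WWTR1 stood at 17.8 and 17.1 TPM in Parental, 22.8 and 15.4 in sgNTC clone 1 and 28.6 and 14.1 in sgNTC clone 2, against 36.3 and 24.8 in sgRAC1 clone 1, 29.8 and 23.4 in clone 2 and 24.1 and 26.0 in clone 3. In each pair, here and in the pairs that follow, the first value is from batch 1 and the second from batch 2. In batch 2 all knockout libraries were above all RAC1-positive ones, and in batch 1 they overlapped through sgNTC clone 2, the library with few detected genes. The WWTR1 level averaged 27.4 ± 2.84 TPM in the knockout lines and 19.3 ± 1.95 in the RAC1-positive lines, which differed by 0.51 (SE 0.12) with adjusted p = 0.199 by limma. The difference was 0.38 in batch 1 and 0.64 in batch 2, and 0.67 (adjusted p = 0.104 by limma) without sgNTC clone 2 replicate 1.

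YAP1 stood at 9.41 and 11.5 TPM in Parental, 12.3 and 10.5 in sgNTC clone 1 and 13.8 and 11.7 in sgNTC clone 2, against 14.7 and 15.8 in sgRAC1 clone 1, 11.6 and 12.8 in clone 2 and 13.5 and 14.8 in clone 3. YAP1 (chromosome 11, 102110461 to 102233423, plus strand) encodes the coactivator for which the programme is named, and its line means overlapped through sgNTC clone 2 and sgRAC1 clone 2. Over the lines this gave 13.9 ± 1.52 TPM in the knockout lines and 11.5 ± 1.15 in the RAC1-positive lines, a difference of 0.25 (SE 0.14), for which limma gave adjusted p = 0.496. With sgNTC clone 2 replicate 1 left out, the YAP1 lines no longer overlapped, and the difference was 0.29 with adjusted p = 0.289 by limma.

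TEAD1 (chromosome 11, 12674591 to 12944483, plus strand) encodes the most abundant of the 4 TEAD factors per length in these cells. TEAD1 stood at 13.1 and 16.1 TPM in Parental, 20.2 and 13.1 in sgNTC clone 1 and 18.4 and 14.7 in sgNTC clone 2, against 18.5 and 10.7 in sgRAC1 clone 1, 17.8 and 13.1 in clone 2 and 13.0 and 12.5 in clone 3. Both genotypes were higher in batch 1 than in batch 2 apart from Parental, and the ranges overlapped. Line means of TEAD1 were 14.3 ± 1.37 TPM in the knockout lines and 15.9 ± 1.16 in the RAC1-positive lines, and limma gave a difference of -0.16 (SE 0.13) with adjusted p = 0.636. TEAD4 ran from 0.803 to 5.40 TPM in knockout libraries and from 3.18 to 7.67 in RAC1-positive ones, a difference of -0.60 (SE 0.30) with adjusted p = 0.436 by limma. TEAD2 (1.66 against 1.42 TPM, knockout first) and TEAD3 (2.13 against 2.21 TPM) differed by 0.13 and 0.032. The TEAD3 sign turned with the batch (-0.075 in batch 1 alone), and so did that of TEAD2 (-0.042). The TEAD3 difference was 0.22 and that of TEAD2 0.215 without sgNTC clone 2 replicate 1.

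The kinases at the top of the cascade and their scaffold had differences close to 0. STK3 (21.9 against 22.3 TPM, knockout first), STK4 (12.1 against 12.5 TPM) and SAV1 (24.1 against 23.4 TPM) differed by 0.0070, -0.035 and 0.037, each less than its SE (0.14, 0.14 and 0.11). The sign of STK3 turned in batch 1 alone (-0.088). STK3 differed by 0.097 and SAV1 by 0.069 without sgNTC clone 2 replicate 1. NF2, which encodes merlin, a membrane scaffold that helps to activate LATS, averaged 48.9 ± 6.51 TPM in the knockout lines and 43.5 ± 6.48 in the RAC1-positive lines, with a difference of 0.16 (SE 0.15).

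LATS1, LATS2 and the adaptor MOB1A each averaged less in every knockout line than in any RAC1-positive line. LATS1 stood at 3.24 and 5.08 TPM in Parental, 3.69 and 3.93 in sgNTC clone 1 and 5.33 and 4.95 in sgNTC clone 2, against 4.17 and 3.21 in sgRAC1 clone 1, 3.51 and 3.16 in clone 2 and 3.19 and 3.38 in clone 3. The knockout libraries held within 3.16 to 3.51 TPM apart from sgRAC1 clone 1 in batch 1, and batch 2 alone had no overlap. The line means were 3.44 ± 0.220 TPM in the knockout lines and 4.37 ± 0.687 in the RAC1-positive lines, a difference of -0.26 (SE 0.17), with adjusted p = 0.555 by limma. LATS2 stood at 9.47 and 6.14 TPM in Parental, 8.85 and 6.60 in sgNTC clone 1 and 12.8 and 6.74 in sgNTC clone 2, against 7.85 and 5.44 in sgRAC1 clone 1, 8.11 and 6.64 in clone 2 and 8.58 and 5.84 in clone 3. All 6 lines were lower in batch 2 than in batch 1, and the genotypes were apart in batch 1 alone. The LATS2 level averaged 7.08 ± 0.383 TPM in the knockout lines and 8.44 ± 1.17 in the RAC1-positive lines, which differed by -0.20 (SE 0.14) with adjusted p = 0.596 by limma. Without sgNTC clone 2 replicate 1, the highest LATS2 library, the difference was -0.061 and the lines overlapped. That clone was then left with its batch 2 value alone.

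MOB1A (chromosome 2, 74152528 to 74178898, minus strand) encodes the adaptor that LATS needs for its activity. MOB1A stood at 132 and 156 TPM in Parental, 122 and 104 in sgNTC clone 1 and 118 and 109.5 in sgNTC clone 2, against 79.3 and 115 in sgRAC1 clone 1, 74.3 and 114 in clone 2 and 78.1 and 139.9 in clone 3. All 3 knockout clones were below the RAC1-positive lines in batch 1 and among them in batch 2. Over the lines this gave 100.2 ± 7.79 TPM in the knockout lines and 124 ± 17.5 in the RAC1-positive lines, a difference of -0.33 (SE 0.12), for which limma gave adjusted p = 0.320. The difference was -0.67 in batch 1 and 0.016 in batch 2, and limma gave this change of 0.69 an adjusted p of 0.904.

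Of the proteins that hold YAP at junctions and in the cytoplasm, the angiomotin-like AMOTL1 and AMOTL2 lay on opposite sides. AMOTL1 stood at 1.92 and 1.74 TPM in Parental, 1.32 and 2.23 in sgNTC clone 1 and 1.02 and 1.87 in sgNTC clone 2, against 3.14 and 2.04 in sgRAC1 clone 1, 2.45 and 3.21 in clone 2 and 3.06 and 3.49 in clone 3. The knockout lines were all higher, with library ranges that overlapped through sgRAC1 clone 1 in batch 2. Line means of AMOTL1 were 2.90 ± 0.346 TPM in the knockout lines and 1.68 ± 0.208 in the RAC1-positive lines, and limma gave a difference of 0.54 (SE 0.19) with adjusted p = 0.302. AMOTL2 (chromosome 3, 134355874 to 134375479, minus strand) is at once a binding partner and a target of YAP. AMOTL2 stood at 24.0 and 18.1 TPM in Parental, 23.5 and 13.95 in sgNTC clone 1 and 28.2 and 14.1 in sgNTC clone 2, against 14.1 and 11.7 in sgRAC1 clone 1, 15.7 and 10.6 in clone 2 and 16.3 and 13.9 in clone 3. Every knockout library was below every RAC1-positive library of its own batch, in batch 2 by the small gap between 13.94 and 13.95 TPM. The line means were 13.7 ± 1.22 TPM in the knockout lines and 20.3 ± 1.40 in the RAC1-positive lines, a difference of -0.50 (SE 0.13), with adjusted p = 0.210 by limma. The difference was -0.68 in batch 1 and -0.33 in batch 2. It was -0.34 (adjusted p = 0.323 by limma) without sgNTC clone 2 replicate 1, the highest of its libraries, and the line means then overlapped. That clone was then left with its batch 2 value alone, and within each batch the AMOTL2 libraries stayed apart.

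PTPN14 (chromosome 1, 214348696 to 214552449, minus strand) encodes a phosphatase that binds YAP and is also listed as its target. PTPN14 stood at 22.4 and 25.3 TPM in Parental, 27.0 and 19.3 in sgNTC clone 1 and 27.8 and 21.8 in sgNTC clone 2, against 21.4 and 21.3 in sgRAC1 clone 1, 16.8 and 16.5 in clone 2 and 14.8 and 14.2 in clone 3. Both libraries of clone 1 lay in the range of the RAC1-positive libraries, those of clones 2 and 3 lay under it, and batch 1 alone had no overlap. The PTPN14 level averaged 17.5 ± 3.51 TPM in the knockout lines and 23.9 ± 0.852 in the RAC1-positive lines, which differed by -0.44 (SE 0.16) with adjusted p = 0.312 by limma. AJUBA, a LIM protein that restrains LATS, stood at 16.1 to 35.7 and 17.2 to 35.1 TPM in knockout and RAC1-positive libraries, with a difference of -0.077 (SE 0.21) that turned to 0.053 in batch 2 alone and was -0.012 without sgNTC clone 2 replicate 1. VGLL4, which competes with YAP for TEAD, was under the level filter of 1 TPM, at 0.504 to 1.24 TPM in knockout and at most 0.714 in RAC1-positive libraries.

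Among the targets, FJX1 stood furthest apart for its error. It encodes a secreted relative of the fly protein four-jointed and lies at chromosome 11, 35618419 to 35620868, plus strand. FJX1 stood at 18.7 and 15.3 TPM in Parental, 24.8 and 11.7 in sgNTC clone 1 and 23.0 and 14.3 in sgNTC clone 2, against 8.38 and 8.90 in sgRAC1 clone 1, 9.58 and 9.67 in clone 2 and 7.76 and 6.85 in clone 3. All 6 knockout libraries were below all 6 RAC1-positive ones, and FJX1 was the only 1 of the 33 genes for which that held in either direction (0.714% of all genes were lower and 2.14% higher in this way). Over the lines this gave 8.52 ± 1.16 TPM in the knockout lines and 18.0 ± 0.850 in the RAC1-positive lines, a difference of -0.96 (SE 0.14), for which limma gave adjusted p = 0.143. The adjusted p was 0.0138 in the fit to 12 libraries and 0.0127 with the replicate block. The difference was -1.27 in batch 1 and -0.64 in batch 2. Without sgNTC clone 2 replicate 1 it was -0.85 with adjusted p = 0.0820 by limma.

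The paired secreted matrix proteins CTGF (chromosome 6, 131948176 to 131951373, minus strand) and CYR61 (chromosome 1, 85580761 to 85583962, plus strand) are the usual readouts of YAP and TAZ. CTGF stood at 25.1 and 20.2 TPM in Parental, 38.6 and 14.5 in sgNTC clone 1 and 24.1 and 13.8 in sgNTC clone 2, against 16.8 and 12.4 in sgRAC1 clone 1, 14.2 and 11.4 in clone 2 and 9.18 and 6.56 in clone 3. Within each batch all knockout libraries were below all RAC1-positive ones, and clone 3 was the lowest in both. Line means of CTGF were 11.8 ± 3.49 TPM in the knockout lines and 22.7 ± 3.82 in the RAC1-positive lines, and limma gave a difference of -0.86 (SE 0.23) with adjusted p = 0.227. The difference was -1.08 in batch 1 and -0.65 in batch 2. It was -0.74 (adjusted p = 0.250 by limma) without sgNTC clone 2 replicate 1, and that clone, left with its batch 2 value alone, then lay within the knockout lines.

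CYR61 stood at 97.0 and 99.4 TPM in Parental, 118 and 83.6 in sgNTC clone 1 and 75.0 and 72.1 in sgNTC clone 2, against 76.2 and 58.5 in sgRAC1 clone 1, 86.1 and 60.6 in clone 2 and 74.2 and 62.3 in clone 3. The genotypes were apart in batch 2 and overlapped in batch 1, where sgNTC clone 2 was among the knockout clones. The line means were 69.6 ± 3.23 TPM in the knockout lines and 90.8 ± 15.0 in the RAC1-positive lines, a difference of -0.37 (SE 0.13), with adjusted p = 0.318 by limma. The line means were apart by the small gap between 73.33 TPM in sgRAC1 clone 2 and 73.52 TPM in sgNTC clone 2. Without sgNTC clone 2 replicate 1 the difference was -0.36 (adjusted p = 0.248 by limma) and the line means overlapped. That clone was then left with its batch 2 value alone, and within each batch the CYR61 libraries were apart.

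ANKRD1 (chromosome 10, 90912096 to 90921276, minus strand), a nuclear ankyrin repeat protein, is the third common readout. ANKRD1 stood at 70.5 and 88.8 TPM in Parental, 149 and 139 in sgNTC clone 1 and 155 and 124 in sgNTC clone 2, against 80.9 and 87.7 in sgRAC1 clone 1, 101 and 79.8 in clone 2 and 141 and 85.7 in clone 3. Both sgNTC clones were high, and the Parental mean was below those of all 3 knockout clones. The ANKRD1 level averaged 96.0 ± 15.5 TPM in the knockout lines and 121 ± 36.1 in the RAC1-positive lines, which differed by -0.31 (SE 0.24) with adjusted p = 0.622 by limma. CTGF, CYR61 and ANKRD1 were thus all lower on average, the last with its groups overlapping. The line means of CTGF and CYR61 overlapped as well without sgNTC clone 2 replicate 1, which leaves that clone its batch 2 value alone. Within each batch the libraries of CTGF and CYR61 were apart without it.

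**Figure D2:**
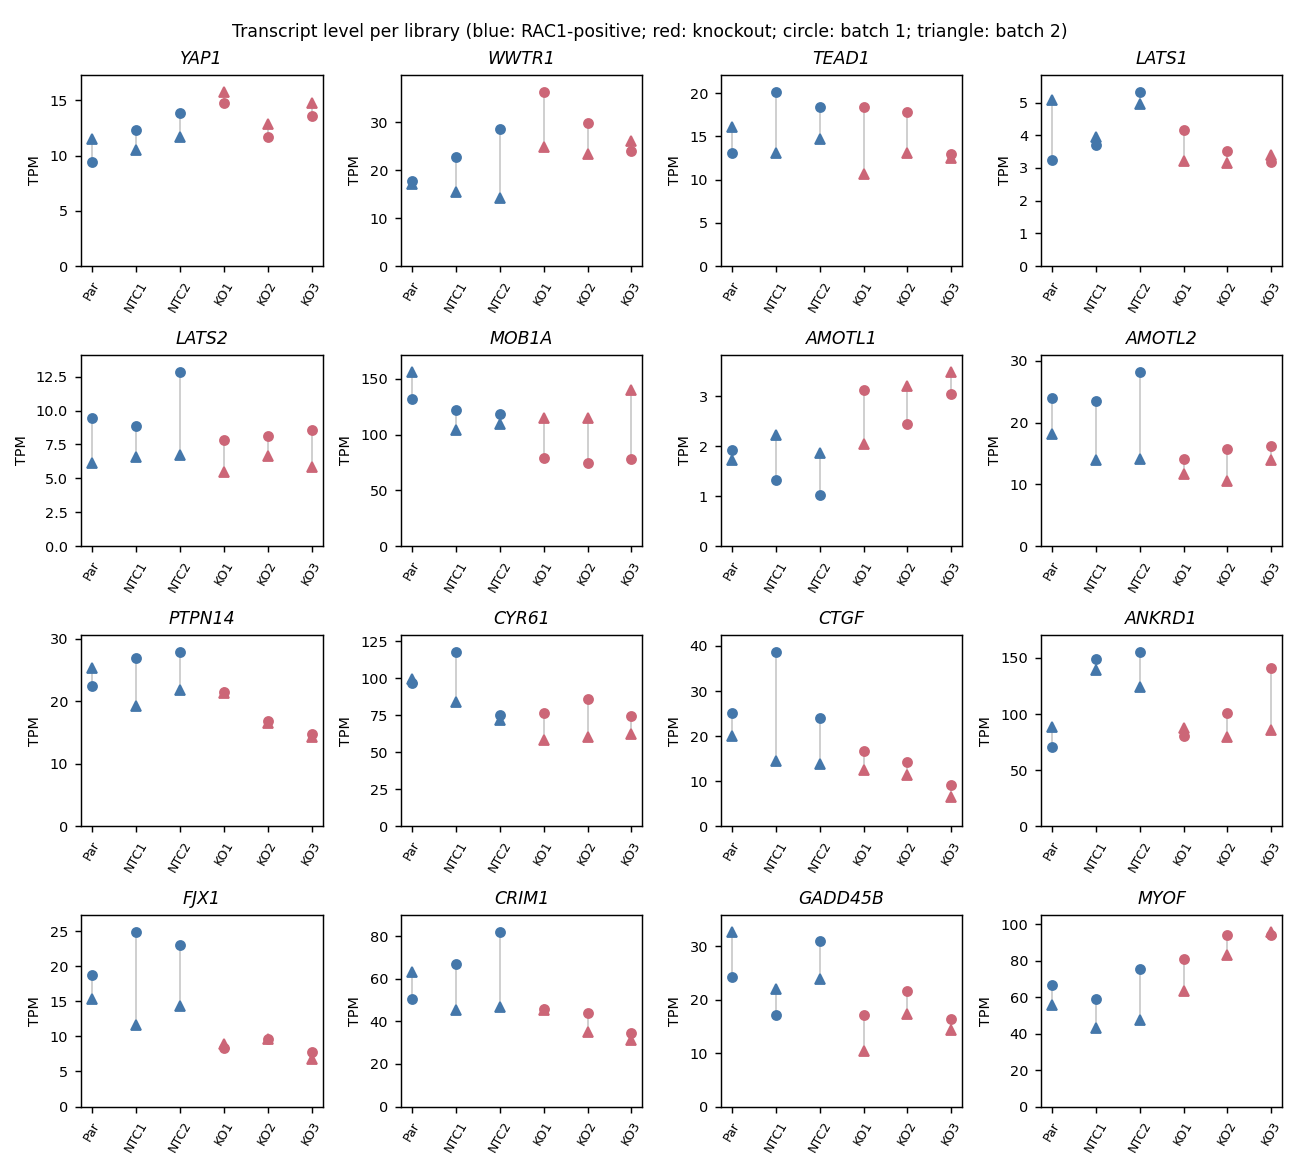
TPM in each library for 16 pathway and target genes, on vertical axes from 0; Par is Parental, NTC1 and NTC2 the sgNTC clones and KO1 to KO3 the sgRAC1 clones, with circles for batch 1 and triangles for batch 2. All 6 FJX1 knockout libraries (6.85 to 9.67 TPM) lie below the RAC1-positive ones (11.7 to 24.8 TPM), whereas ANKRD1 in Parental in batch 1 (70.5 TPM) lies below every knockout library.

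CRIM1 (chromosome 2, 36355926 to 36551135, plus strand) encodes a transmembrane protein with cysteine-rich repeats that binds bone morphogenetic proteins. CRIM1 stood at 50.4 and 63.0 TPM in Parental, 66.8 and 45.6 in sgNTC clone 1 and 81.9 and 46.7 in sgNTC clone 2, against 45.9 and 45.4 in sgRAC1 clone 1, 43.9 and 35.2 in clone 2 and 34.6 and 31.2 in clone 3. Knockout and RAC1-positive libraries were apart within each batch, and over both batches they overlapped between 45.6 and 45.9 TPM. Over the lines this gave 39.4 ± 6.37 TPM in the knockout lines and 59.1 ± 4.52 in the RAC1-positive lines, a difference of -0.56 (SE 0.14), for which limma gave adjusted p = 0.209. The difference was -0.65 in batch 1 and -0.46 in batch 2, and -0.42 (adjusted p = 0.208 by limma) without sgNTC clone 2 replicate 1.

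GADD45B stood at 24.3 and 32.6 TPM in Parental, 17.2 and 22.1 in sgNTC clone 1 and 31.1 and 23.9 in sgNTC clone 2, against 17.1 and 10.4 in sgRAC1 clone 1, 21.7 and 17.3 in clone 2 and 16.4 and 14.4 in clone 3. GADD45B, a stress-induced regulator of growth arrest and kinase signalling, was apart in batch 2 and overlapped in batch 1 through sgNTC clone 1 and sgRAC1 clone 2. Line means of GADD45B were 16.2 ± 2.98 TPM in the knockout lines and 25.2 ± 4.86 in the RAC1-positive lines, and limma gave a difference of -0.61 (SE 0.19) with adjusted p = 0.275. The difference was -0.35 in batch 1 and -0.86 in batch 2, opposite in order to FJX1, CTGF and AMOTL2, which differed more in batch 1.

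MYOF (chromosome 10, 93306429 to 93482317, minus strand), which encodes myoferlin, a ferlin of membrane repair and receptor trafficking, was the target gene that lay above in all knockout lines. MYOF stood at 66.9 and 55.6 TPM in Parental, 59.1 and 42.9 in sgNTC clone 1 and 75.4 and 47.4 in sgNTC clone 2, against 81.0 and 63.5 in sgRAC1 clone 1, 94.2 and 83.1 in clone 2 and 94.0 and 95.5 in clone 3. In both batches every knockout library was above every RAC1-positive one. The line means were 85.2 ± 11.6 TPM in the knockout lines and 57.9 ± 5.98 in the RAC1-positive lines, a difference of 0.56 (SE 0.14), with adjusted p = 0.205 by limma. The adjusted p by limma was 0.0658 in the fit to 12 libraries and 0.0396 with the replicate block. The difference was 0.42 in batch 1 and 0.71 in batch 2, and it was 0.67 (adjusted p = 0.111 by limma) without sgNTC clone 2 replicate 1.

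Libraries of the genotypes were apart in each batch for 5 of the 33 genes. FJX1, CTGF, AMOTL2 and CRIM1 were lower (1.51% of all genes were) and MYOF was higher (2.94% of all genes). Without sgNTC clone 2 replicate 1 there were 5 lower (2.63% of all genes) and 2 higher (4.85%), since CYR61 and WWTR1 joined them. Of the 11 genes at an unadjusted p of 0.05, the differences of 10 in the separate batches were more than 1.5 times apart or of opposite sign. CRIM1 was the exception. The share of all genes was not taken for this count, so it has no background to be read against. No change of the genotype difference between batches passed limma among the 33 genes (lowest adjusted p = 0.904). Without the same library the difference was -0.55 for GADD45B, -0.38 for PTPN14, -0.31 for MOB1A and 0.46 for AMOTL1. Over the line means without that library 7 genes were apart on the low side (10.2% of all genes) and 5 on the high side (13.7%).

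In the targets left to describe, the lines of the genotypes overlapped with all libraries in. NUAK2, a kinase of the AMPK family, was at 6.16 to 11.0 and 5.94 to 15.6 TPM, a difference of -0.41 (SE 0.18) with adjusted p = 0.411 by limma. It was -0.61 (adjusted p = 0.164) without sgNTC clone 2 replicate 1, whose 5.94 TPM was the lowest RAC1-positive value, and the lines were then apart. The NUAK2 difference was -0.20 without sgNTC clone 2 replicate 2, the highest NUAK2 library. AXL, a receptor tyrosine kinase and the most abundant of the 36 genes per length, averaged 533 ± 104 TPM in the knockout lines and 529.8 ± 107 in the RAC1-positive lines (difference 0.0069, -0.27 in batch 1 alone and 0.064 without sgNTC clone 2 replicate 1). TGFB2, a growth factor, differed by 0.22 (13.8 against 11.8 TPM, knockout first), and ASAP1, which acts on Arf GTPases, by -0.064 (26.6 against 27.8 TPM). These were 0.31, with the TGFB2 lines then apart, and 0.0027 without sgNTC clone 2 replicate 1. CCDC80, a secreted matrix protein, and RBMS3, which binds RNA, were near 2 TPM or lower on average in each genotype and differed by -0.22 and -0.26, the latter by -0.17 without that library. ARHGEF17 did not pass the level filter, with 0.552 to 0.991 TPM in knockout and up to 1.26 in RAC1-positive libraries. FOXF2, a forkhead transcription factor, was listed at 0 in all 12.

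The targets were also set clone by clone against the RAC1-positive lines. Of 19 target genes, sgRAC1 clone 1 had 11 below and 5 above the range of the RAC1-positive lines, where 22.9% of all genes were below and 27.1% above. Clone 2 had 10 below and 3 above (21.2% and 26.5% of all genes), and clone 3 had 9 below and 3 above (24.3% and 30.4% of all genes). With sgNTC clone 2 replicate 1 left out, there were 10, 8 and 8 below in clones 1, 2 and 3 (27.2%, 24.9% and 27.4% of all genes). Above the range there were then 5, 4 and 4 (30.8%, 29.4% and 31.6% of all genes). Relative to the mean of the RAC1-positive lines the median target was at -0.33 in clones 1 and 2 and at -0.24 in clone 3, against -0.063 to 0.058 in the RAC1-positive lines themselves, which help to set that mean. The median of all genes was 0.021 to 0.030 in the clones. CTGF was at -0.54, -0.70 and -1.35 in clones 1, 2 and 3, and PTPN14 at -0.15, -0.49 and -0.68. AMOTL2 (-0.58, -0.57 and -0.36) and NUAK2 (-0.58, -0.50 and -0.14) were nearest to the RAC1-positive lines in clone 3.

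**Figure D3:**
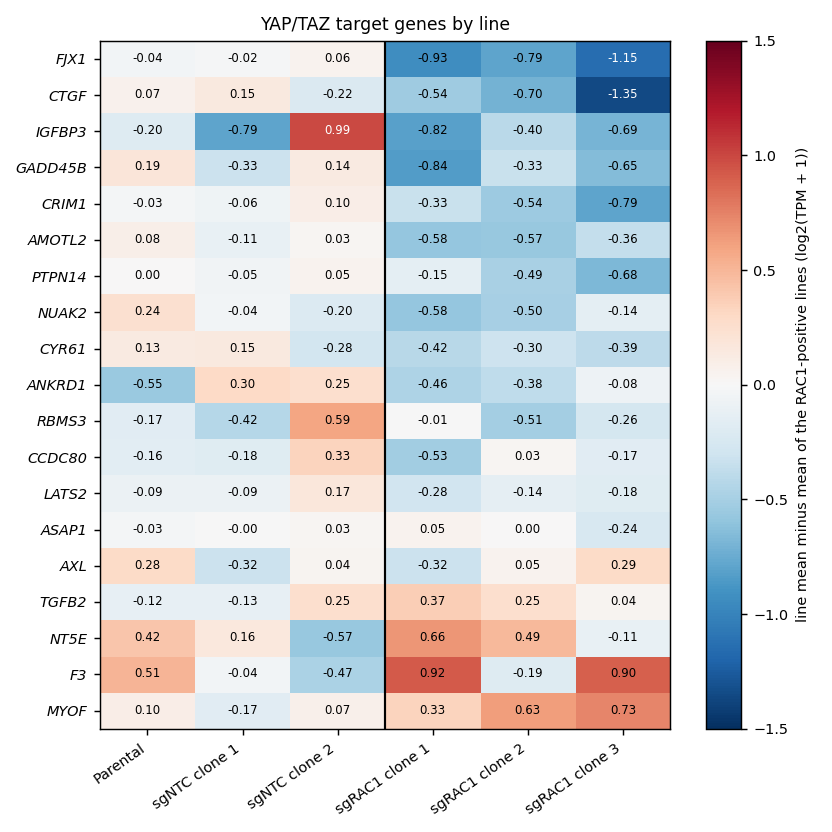
Each cell is the line mean of a target gene minus the mean of the 3 RAC1-positive lines in log2(TPM + 1), with blue for lower and red for higher; the black line divides RAC1-positive lines (left) from knockout clones (right). FJX1 is at -0.93, -0.79 and -1.15 in the 3 clones, whereas F3 is at 0.92, -0.19 and 0.90.

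The lines of each genotype were compared among themselves. No gene of the 33 passed the limma F-test among the 3 knockout lines (0.0576% of all genes did), and 2 had an unadjusted p under 0.05 (3.58% of all genes), a share near that of all genes. These were NT5E and F3. NT5E, which encodes the ectonucleotidase that makes adenosine, stood at 63.4 and 59.1 in sgRAC1 clone 1, 52.2 and 56.8 in clone 2 and 28.6 and 44.4 in clone 3, with 45.0 and 59.3 TPM in Parental, 44.9 and 41.0 in sgNTC clone 1 and 24.8 and 26.2 in sgNTC clone 2. sgRAC1 clone 3 and sgNTC clone 2 were its low lines, 1 of each genotype. F3, the tissue factor that starts coagulation, stood at 41.1 and 25.4 in sgRAC1 clone 1, 18.5 and 11.2 in clone 2 and 33.1 and 30.7 in clone 3, with 20.7 and 28.1 TPM in Parental, 21.8 and 11.98 in sgNTC clone 1 and 16.0 and 8.53 in sgNTC clone 2. Clone 2, which shares its guide with clone 3, was the low one, and the log2 range of the clone means was 1.11. The adjusted p by limma was 1.0 for both genes.

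Among the RAC1-positive lines again none of the 33 passed (0.0115% of all genes), and 4 had an unadjusted p under 0.05 (5.75% of all genes). IGFBP3, which encodes a binding protein of insulin-like growth factors, ranged by 1.78 and was highest in sgNTC clone 2, at 5.59 and 3.31 TPM, against 0.264 to 1.41 in the other RAC1-positive libraries and 0.399 to 1.06 in the knockout ones. NT5E ranged by 0.99, RBMS3 by 1.01 and ANKRD1 by 0.86. The lowest adjusted p by limma among them was 0.597, for IGFBP3. Without sgNTC clone 2 replicate 2, which leaves the library with few detected genes alone in its line, 1394 of all genes and 2 of the 33 passed. These were IGFBP3 (adjusted p = 0.0376 by limma) and TEAD3 (adjusted p = 0.0409). The mean difference of IGFBP3 between genotypes, -0.64 (SE 0.45), rested on that clone and was -0.14 without it.

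The targets also tended to be lower in the second batch. In batch 2, 17 of 19 target genes were lower than in batch 1 on average over the lines, with a median of -0.21. Of all 17367 genes 7526 were lower, and their median was 0.041. None of the 33 genes passed limma on the 6 paired differences (0.0115% of all genes did). At an unadjusted p of 0.05 there were 7 lower (1.68% of all genes) and 0 higher (6.51%). The 6 with the smallest p were LATS2 (-0.49), AMOTL2 (-0.51), CTGF (-0.59), MYOF (-0.31), CYR61 (-0.27) and WWTR1 (-0.39), with adjusted p of 0.262 to 0.568 by limma. LATS2, AMOTL2 and CTGF were lower in batch 2 in all 6 lines (1.21% of all genes were), and none of the 33 genes was higher in all 6 (4.34% of all genes). Without sgNTC clone 2 the counts were 15 of 19 targets lower on average and 5 of the 33 genes lower at that unadjusted p. The shares of all genes without that clone were not taken, so these 2 counts have no background to be read against.

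Line by line, the difference was as follows. In sgNTC clone 1 and sgNTC clone 2 the median target was lower in batch 2, with differences of -0.42 and -0.52 and 17 of 19 genes lower in each, where 49.0% and 45.0% of all genes were lower. The batch 1 library of sgNTC clone 2 is the one with few detected genes. In Parental it was 0.083, with 7 lower (42.6% of all genes). In the knockout clones it was -0.12, -0.18 and -0.14, with 13, 11 and 15 lower (43.4%, 45.6% and 41.3% of all genes). Between genotypes the change from batch to batch passed limma for 0 of 33 genes and 0 of all 17367 (757 genes, 4.36%, had an unadjusted p under 0.05). MOB1A and AXL were the 2 of the 33 genes below that p, AXL with a change of 0.54 (limma, adjusted p = 0.904).

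**Figure D4:**
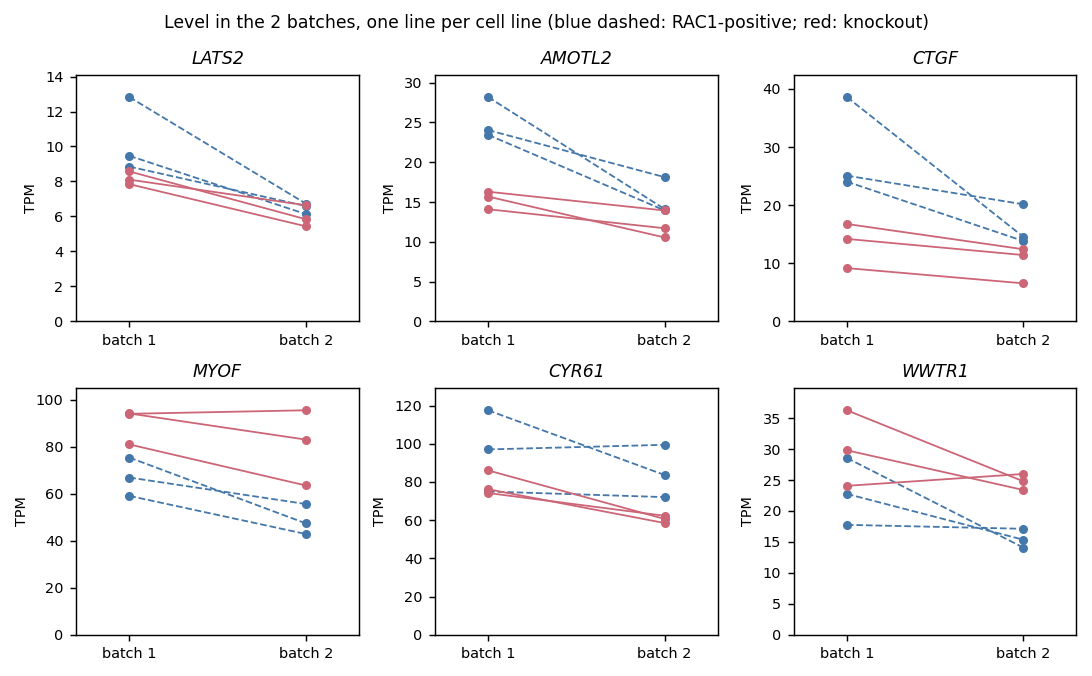
TPM in batch 1 and batch 2 for the 6 genes with the smallest batch p; each line joins the 2 libraries of a cell line, dashed blue for RAC1-positive and solid red for knockout. LATS2, AMOTL2 and CTGF slope down in all 6 lines, and CTGF in the knockout lines lies under the RAC1-positive lines in each batch.

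Pathway genes outside the 36 were taken from a further list. Of 43 listed, 31 were tested, 19 were higher and 12 lower in the knockout, and the median was 0.074. At an unadjusted p of 0.05 there were 3 higher (7.53% of all genes) and 1 lower (5.46% of all genes), shares near those of all genes. MAP4K4, a kinase that acts beside MST on LATS, averaged 12.2 ± 0.692 TPM in the knockout lines and 8.33 ± 0.532 in the RAC1-positive lines. Its difference was 0.49 (SE 0.13) with adjusted p = 0.215 by limma. In the fit to 12 libraries the adjusted p by limma was 0.0345, and 0.0516 with the replicate block. FRMD6, a relative of merlin, averaged 12.7 ± 3.21 TPM in the knockout lines and 18.7 ± 2.73 in the RAC1-positive lines, a difference of -0.56 (SE 0.22) with adjusted p = 0.350 by limma. PATJ, a polarity scaffold, differed by 0.46 and RASSF1, a partner of MST, by 0.34.

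A further 16 target genes were listed, of which 11 were tested, 4 higher and 7 lower, with a median of -0.096. At an unadjusted p of 0.05 there were 2, both lower (5.46% of all genes). THBS1, the matrix protein thrombospondin, averaged 19.4 ± 1.67 TPM in the knockout lines and 39.0 ± 11.8 in the RAC1-positive lines. Its difference was -0.91 (SE 0.21) with adjusted p = 0.194 by limma. In the fit to 12 libraries the adjusted p by limma was 0.0416, and 0.0356 with the replicate block. CAV1, the coat protein of caveolae, averaged 326 ± 28.7 TPM in the knockout lines and 456 ± 73.3 in the RAC1-positive lines, a difference of -0.46 (SE 0.12) with adjusted p = 0.231 by limma. Neither list passed limma for any gene at the level of lines.

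Of the 5 epithelial markers 4 were higher on average in the knockout lines. Lines of the genotypes did not overlap for EPCAM and CDH1, genes of cell contact, and overlapped for KRT19 (0.48) and KRT8 (0.23). KRT18 was lower, at 129 ± 54.3 TPM in the knockout lines and 236 ± 124 in the RAC1-positive lines. Its difference was -0.82 (SE 0.45), and its lines overlapped. EPCAM averaged 43.8 ± 6.72 TPM in the knockout lines and 24.2 ± 2.10 in the RAC1-positive lines and CDH1, which encodes E-cadherin, averaged 13.5 ± 4.13 TPM in the knockout lines and 3.98 ± 1.51 in the RAC1-positive lines. Their differences were 0.81 (SE 0.15) and 1.52 (SE 0.30), with adjusted p of 0.150 and 0.156 by limma, and 0.0184 and 0.0117 in the fit to 12 libraries. With the replicate block the adjusted p by limma was 0.0304 and 0.0162. CD14 averaged 1.79 ± 1.28 TPM in the knockout lines and 0.440 ± 0.238 in the RAC1-positive lines. The part of these genes in the levels of the targets was not tested.

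The authors' deposited table holds a comparison for 35 of the 36 genes, FOXF2 being the other. Of the 35 genes, 11 (31.4%) had an adjusted p under 0.05 in the authors' deposited table, 3 higher and 8 lower, against 9.74% of its 15140 genes (5.68% higher and 4.06% lower). Those 11 in the authors' deposited table were MYOF (0.58), WWTR1 (0.56) and AMOTL1 (0.64) on the higher side and FJX1 (-1.02), CTGF (-0.93), GADD45B (-0.63), NUAK2 (-0.59), CRIM1 (-0.55), AMOTL2 (-0.52), CYR61 (-0.44) and PTPN14 (-0.44) on the lower side, as log2 fold changes. By list, the authors' deposited table called 9 of 20 target genes and 4 of 18 pathway genes. YAP1 had a log2 fold change of 0.30 with adjusted p = 0.0979 and MOB1A one of -0.34 with adjusted p = 0.0650 in the authors' deposited table. That table rests on the same libraries, and whether its model took the 2 libraries of a clone as separate samples was not stated in the labels.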

How the data were processed

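RNA from 12 libraries of 6 DU145 lines, 2 batches each, was analysed from 1 deposited table. Per the submitters' processing notes, the build was GRCh38 and the tools were STAR 2.6.1d, bcl2fastq and DESeq2. Annotation, counter and strand setting were not given in the sources used here. Per gene and library, the deposited values are TPM, per the file headers, and each library sums to 1000000. The same table holds the authors' own comparison, with a deposited base mean (a normalized signal), a log2 fold change and its error, a Wald score, a p-value and an adjusted p-value. TPM keep no depth, so the depth of each library is unknown and no counting interval can be given. All columns of per-sample values were used.

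Genes averaging 1 TPM or more in 1 genotype or both were kept (17367), values were taken as log2(TPM + 1), and limma 3.58.1 in R 4.3.3, with a variance trend and Benjamini-Hochberg adjustment over all genes kept, was fitted two-sided to the means of the 6 lines (3 against 3). A clone carries its genotype, and with all libraries in the mean over both batches balances them. Differences among the lines of a genotype used an F-test over the 12 libraries, the batch difference an intercept over 6 paired differences, and its change with genotype a contrast of those. The 12 libraries were also fitted with the line as a random effect. The labels say that a replicate number is a batch, so the numbers pair the libraries. The deviations of same-numbered libraries correlated at -0.13 to 0.30 over 15 pairs of lines (median 0.026). No 2 of the 66 pairs of libraries were identical. Nothing in the labels says that the 2 libraries of a line came from separate cultures beyond the word biological, so p-values measure the spread between these libraries and lines.

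All 36 genes were matched by symbol, and positions are from GENCODE release 29 on GRCh38. Promoter windows are from RefSeq (GRCh38.p14), 1 per gene, matched for 29 genes. Library values are given for YAP1, WWTR1, TEAD1, CYR61, CTGF and ANKRD1 and for genes with an unadjusted p under 0.05 or with lines that did not overlap; up to 6 genes by smallest p are named for lines, batches and the other lists. Counts of libraries apart within each batch, and of genes outside the range of the RAC1-positive lines in each clone, were added after values were seen. The genes and lists were chosen with earlier results of these data known. The fits were tested on simulated data that held the spread between libraries of a line and no spread between clones. They therefore do not show how the fit to line means behaves at the spread of these clones. Alternatives were other scalings, pseudocounts of 0.1 and 5, no filter and one of 5 TPM, each batch alone, the 12-library fits, and leaving out each library or line. Python 3.11.15, pandas 2.3.3 and matplotlib 3.10.9 were used for the rest.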

Additional observations from a re-analysis of the deposited data

Results flagged for a closer look

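Over the 66 groups of 6 libraries checked (33 genes in 2 genotypes), 3 held a library far from the other 5, and chance alone gives about 1 such group in 20. LATS1 was high in sgRAC1 clone 1 replicate 1, at 4.17 TPM, against 3.16 to 3.51 TPM in the other knockout libraries. AXL was low in the same library, at 335.8 TPM, against 501.9 to 637.2 TPM in the others. TEAD3 was high in sgNTC clone 2 replicate 1, the library with the fewest genes above 0, at 5.04 TPM, against 1.27 to 2.12 TPM in the other RAC1-positive libraries.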

How the results depend on the processing

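Of the alternatives other than leaving out a library or line, those that moved a result were these. The number of all genes called between genotypes, 1, was 0 with median-of-ratios or upper quartile scaling, a pseudocount of 0.1, no filter or batch 1 alone, 2 with a pseudocount of 5, 3 with a filter at 5 TPM, 33 in batch 2 alone, 369 in the fit to 12 libraries and 320 with the replicate block; of the 33 genes tested here, 1 and 2 were called in the last pair and none in the others. The replicate block changed no other call among them. Genes lower at an unadjusted p of 0.05 numbered 5 in batch 2 alone. The target median was -0.36 with a pseudocount of 0.1, and the pathway median -0.075 in batch 1 and 0.017 in batch 2. Among the knockout lines the genes called were 1 with a pseudocount of 0.1, 29 with 5, 72 without filter, 1 with the 5 TPM filter and 2 with the replicate block; among the RAC1-positive lines they were 12, 0 and 14 for the first 3 and 0 with the replicate block, and the genes of the 33 at an unadjusted p of 0.05 were 2 with the 5 TPM filter. For the batch difference 0 genes were called with median-of-ratios scaling and 22 with the 5 TPM filter, and 11 of the 33 genes were lower at an unadjusted p of 0.05 with upper quartile scaling. Signs turned for TEAD3 (-0.0004 with a pseudocount of 5, -0.075 in batch 1), AXL (-0.27), STK3 (-0.088) and TEAD2 (-0.042) in batch 1, and AJUBA (0.053) and MOB1A (0.016) in batch 2. No sign turned under another scaling. The cause of these shifts was not tested. Leaving out each library or line gave 0 to 21 genes called (21 without sgNTC clone 2 replicate 1) and 0 of the 33 called throughout. It gave 4 to 8 lower and 2 to 4 higher at an unadjusted p of 0.05. With lines apart it gave 6 to 12 lower and 1 to 6 higher. Apart from the shares printed earlier, shares of all genes were not taken for the counts of the 33 genes in this section. With a line left out fewer lines have to be apart, so these counts do not compare with the shares for all 6 lines. The target median was -0.37 to -0.14, the latter without sgNTC clone 2, and the pathway median -0.14 to 0.073. Signs turned for AJUBA (-0.23 to 0.13), ASAP1 (-0.13 to 0.025), AXL (-0.15 to 0.17), RBMS3 (-0.47 to 0.035), SAV1 (-0.037 to 0.11), STK3 (-0.083 to 0.14), STK4 (-0.14 to 0.036) and TEAD3 (-0.16 to 0.24). Among knockout lines 0 to 26 genes were called and 0 to 4 of the 33 had an unadjusted p under 0.05; among RAC1-positive lines 0 to 1394 were called, 0 to 2 of the 33 and 3 to 7 at that p, the highest of each without sgNTC clone 2 replicate 2, which leaves the library with few detected genes alone in its line. For batch, 0 genes were called throughout, 4 to 10 of the 33 were lower at an unadjusted p of 0.05, and 15 to 17 targets were lower.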
